A study of Mus musculus with 22 samples.

Results

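The genes described here encode the subunits of the voltage-gated calcium channels, the voltage-gated sodium channels and the HCN channels of the mouse. They were taken by symbol, as protein-coding genes whose symbol starts with Cacna1, Cacna2d or Cacnb, with Scn and a digit, or with Hcn and a digit. Of the 39056 genes in the count table, 36 met it: 10 pore-forming calcium channel α1 genes, 4 α2δ genes, 4 calcium channel β genes, 10 sodium channel α genes, 4 sodium channel β genes and 4 HCN genes.

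RNA from the PFC of 11 male mice was sequenced, in 2 pools per mouse. In the TRAP pool, ribosomes that carry the tagged subunit EGFP-Rpl10a were pulled down with an antibody and the RNA bound to them was extracted, while the total-RNA pool (INPUT) was taken from each lysate ahead of that step. All mice, Control included, were on a C57BL/6J background, were 8 to 12 weeks old and carried both the tetO-EGFP/Rpl10a and the CaMKIIα-tTA transgene, so that the tag is driven by the CaMKIIα promoter and is present wherever that driver is active. Control mice (n = 3) received saline i.p., and EtOH mice (n = 4) received ethanol at 2 g/kg per day in 2 injections per day over 4 days. EtOH + ABT-888 mice (n = 4) received the same ethanol and, on day 4, the PARP inhibitor ABT-888 at 25 mg/kg. Tissue was taken 2 h after the last injection. No group received ABT-888 without ethanol, so that the inhibitor was measured only on top of ethanol.

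Voltage-gated calcium channels open on depolarization and let in the calcium that triggers transmitter release, shapes dendritic spikes and signals to the nucleus. The α1 subunit forms the pore, and the β and α2δ subunits bring it to the membrane and tune its gating. Voltage-gated sodium channels carry the upstroke of the action potential: each α subunit is a complete pore, and the β subunits set its kinetics and anchor it. HCN channels open on hyperpolarization and carry the h-current, which sets the resting potential, dendritic integration and rhythmic firing.

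The TRAP libraries held 6570957 to 22002618 counted reads and the total-RNA libraries 22132534 to 32421392. Levels are given as CPM, read counts scaled to a common library size with TMM factors. Pearson's r of log2 CPM across genes, which are not independent replicates, was 0.92 to 0.992 between libraries of a group. Each comparison was tested with edgeR's quasi-likelihood test over the 14072 transcripts that passed the filter (at least 500 counts in all and detection in at least 3 libraries), and a transcript was called at a Benjamini-Hochberg adjusted p-value under 0.05. The defining markers of cell types were compared between the pools. All 8 markers of striatal projection neurons (among them Drd1, Drd2, Adora2a, Ppp1r1b, Rgs9, Penk and Tac1) were higher in TRAP than in total-RNA in each treatment, and their summed level was 9804 to 11720 CPM in Control_TRAP against 1179 to 1417 CPM in Control_total-RNA. Of 6 markers of cortical excitatory neurons, 4 were lower in TRAP in each treatment, 1 (Nrgn) was higher, and Camk2a, whose promoter drives the tag, differed in Control by -0.17 ± 0.11 (log2, SE; adjusted p-value 0.203). The astrocyte (6 of 6), oligodendrocyte (6 of 6), oligodendrocyte precursor (4 of 4), microglia (5 of 5) and endothelium and pericyte (6 of 6) markers were lower in Control_TRAP, and of 8 interneuron markers 3 were higher and 3 lower. No marker was at 0 in all libraries of a group. The TRAP pool is therefore named here by its driver and not as pyramidal neurons. In both pools, fewer cells of a type and less RNA per cell cannot be told apart.

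Of the 36 channel genes, 32 passed the filter, and the 4 that did not were Cacna1f (29 counts over 22 libraries), the channel of retinal photoreceptors, Cacna1s (341), the channel of skeletal muscle, Scn4a (53), the sodium channel of skeletal muscle, and Scn11a (181), a sodium channel of nociceptors. These 4 genes were not tested.

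Per length, the sodium channel β subunits Scn2b and Scn4b were among the most abundant channel transcripts in Control mice. Levels were divided by exon length for this purpose, since long genes collect more reads. In Control_total-RNA, Scn2b stood at 88.2 ± 5.65 CPM per kb (SD, n = 3) and Scn4b at 45.3 ± 6.31. Between them, Cacnb4 at 73.1 ± 0.773 and Scn2a at 72.4 ± 0.735 CPM per kb, overlapped between libraries and had no order. Cacnb4 encodes a β subunit of presynaptic calcium channels, and Scn2a the sodium channel Nav1.2 of excitatory axons and dendrites.

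In Control_TRAP, Scn4b was first at 336 ± 106 CPM per kb (n = 3), and all 3 of its libraries were above those of Scn2b at 176 ± 29.4. Among the calcium channel α1 subunits, Cacna1e, which forms the R-type channel Cav2.3, was highest per length in both pools, at 21.6 ± 0.646 CPM per kb in Control_total-RNA and 28.8 ± 0.0436 in Control_TRAP, where the T-type channel Cacna1i overlapped it. Cacna1a, the P/Q-type channel of nerve terminals, followed at 15.5 ± 1.91 CPM per kb in Control_total-RNA, where its libraries overlapped those of the N-type channel Cacna1b at 13.7 ± 1.15. Hcn2 (23.1 ± 5.01 CPM per kb) was the highest HCN gene in Control_total-RNA. Hcn3 stood at 1.91 ± 0.265 and Hcn4 at 0.649 ± 0.027 CPM per kb.

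Near the lower end, Scn10a was ranked 33 of the 36 genes in Control_total-RNA at 0.0961 ± 0.0427 CPM per kb, and 34 in Control_TRAP at 0.0209 ± 0.00758. Scn10a encodes Nav1.8, a sodium channel best known from sensory neurons of pain pathways.

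**Figure D1:**
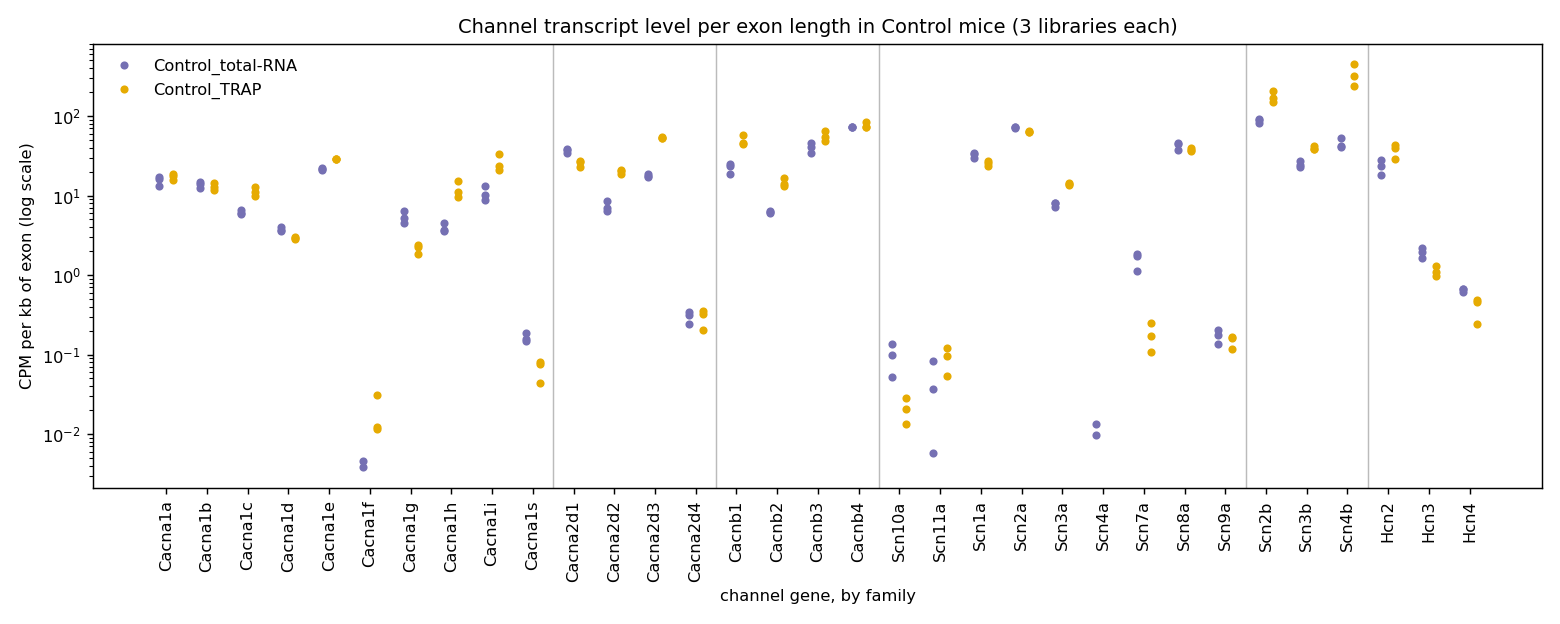
CPM per kb of exon (y axis, log scale) of 33 of the 36 channel genes (x axis, by family) in each of the 3 Control_total-RNA and 3 Control_TRAP libraries, 1 point per library, with libraries at 0 not drawn. Levels run from Scn4b and Scn2b at the top to Scn4a and Cacna1f at the bottom, and Scn4b is the gene whose points move furthest up from total-RNA to TRAP.

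The first comparison asked how channel transcripts were distributed between ribosomes that carry the tag and total-RNA. Within Control, 26 of the 32 channel transcripts tested were called, 16 higher and 10 lower in TRAP, and within EtOH 22 were called, 13 higher and 9 lower. Within EtOH + ABT-888, 20 were called, 14 higher and 6 lower. Many transcripts of any kind differed between the pools: 59.9% of all transcripts tested were called in Control, 50.7% in EtOH and 41% in EtOH + ABT-888. The median log2 fold change over the 32 channel transcripts was 0.27 in Control, 0.19 in EtOH and 0.38 in EtOH + ABT-888, against 0.02, 0.03 and 0.05 over all transcripts. In all 3 treatments, 12 channel transcripts were called higher and 6 lower, beside 16.8% and 19.2% of all transcripts, while 8 were called in 1 or 2 treatments and 6 in none. None of the 32 was called in opposite directions in different treatments, and of all 14072 transcripts 16 were. In a single fit over all 22 libraries, the Control calls of Cacna1d, Cacnb3, Hcn3, Hcn4, Scn1a and Scn2a were lost (adjusted p-values 0.0742, 0.0736, 0.147, 0.194, 0.0662 and 0.352).

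Libraries with the same mouse number were paired across the pools. With the mouse as a replicate block, 26 (16 higher, 10 lower), 24 (14, 10) and 23 (16, 7) channel transcripts were called in Control, EtOH and EtOH + ABT-888, where 62.5%, 58.8% and 54.3% of all transcripts were. The balance of directions moved when a correction for exon length was added. With the replicate block and this length correction together, 25 (19 higher, 6 lower), 26 (19, 7) and 26 (19, 7) were called, beside 62.8%, 58.9% and 54.9% of all transcripts. All transcripts moved likewise. In Control, 4355 higher and 4433 lower with the block became 4906 and 3933 with both. In EtOH, 3951 and 4325 became 4642 and 3647, and in EtOH + ABT-888, 3714 and 3928 became 4325 and 3404. The shift was thus not particular to the channels.

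The sodium channel β subunits Scn2b, Scn3b and Scn4b were higher in TRAP in each treatment. Scn4b, a β subunit that supports resurgent sodium current and is abundant in striatal projection neurons, had 1192, 1597 and 2239 CPM in Control_TRAP and 205, 210.3 and 262 CPM in Control_total-RNA. Its level was 1524, 1534, 1799 and 2611 CPM in EtOH_TRAP against 219, 237, 271 and 440.3 in EtOH_total-RNA. In EtOH + ABT-888 it was 1497, 1758, 2064 and 2462 CPM in TRAP against 209, 263, 264 and 305 in total-RNA. The pools were separated by a wide gap in each treatment, and the log2 fold changes were 2.87 ± 0.20, 2.66 ± 0.25 and 2.90 ± 0.19 (SE; edgeR adjusted p-values 5.94e-07, 1.08e-05 and 2.55e-06). The summed level of the 8 striatal markers moved the same way, with 9573 to 12980 CPM in EtOH_TRAP against 1321 to 1979 in EtOH_total-RNA, and its part in the result was not tested. Scn2b was higher by 0.98, 0.80 and 0.92 on the log2 scale in Control, EtOH and EtOH + ABT-888, and Scn3b by 0.66, 0.47 and 0.66.

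The α2δ subunits, which promote trafficking of the calcium channel pore, went in different directions. Cacna2d3 had 457, 464 and 472 CPM in Control_TRAP and 149.9, 153 and 162 CPM in Control_total-RNA. In EtOH, the TRAP libraries held 282, 307, 362 and 394 CPM and the total-RNA libraries 111, 116, 119 and 136 CPM. In EtOH + ABT-888 they held 309.5, 357, 393 and 444 CPM against 96.9, 117, 126 and 157 CPM. No library of one pool reached the other in any treatment, with log2 fold changes of 1.57 ± 0.08, 1.46 ± 0.14 and 1.59 ± 0.17 (edgeR adjusted p-values 1.04e-07, 1.29e-05 and 4.21e-05).

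Cacna2d2, the α2δ subunit whose loss causes ataxia and seizures in mice, was higher in TRAP in each treatment as well. It had 147, 160.1 and 167 CPM in Control_TRAP against 51.3, 54.8 and 67.3 in Control_total-RNA, a log2 fold change of 1.44 ± 0.11 (edgeR adjusted p-value 1.29e-06). In EtOH + ABT-888 the TRAP libraries held 97.6, 152, 156 and 173 CPM and the total-RNA libraries 32.4, 40.1, 49.6 and 60.1 CPM, without overlap (1.67 ± 0.23, adjusted p-value 0.000173), and in EtOH the fold change was 1.27 ± 0.17 (adjusted p-value 9.34e-05). Cacna2d1, in contrast, was lower in TRAP: 286, 324 and 333 CPM against 423, 467 and 476 CPM in Control, a log2 fold change of -0.55 ± 0.09 (adjusted p-value 0.000303). It was also called in EtOH (-0.75) and in EtOH + ABT-888 (-0.62). Cacna2d4, best known from the retina, was at 1.47 to 5.36 CPM in every library and was not called in any treatment.

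Among the calcium channel β subunits, which bind the α1 pore from the cytoplasm, Cacnb1 and Cacnb2 were higher in TRAP in each treatment. Cacnb2 had 172, 187 and 222 CPM in Control_TRAP and 78.9, 82.8 and 85.2 CPM in Control_total-RNA, a log2 fold change of 1.22 ± 0.11 (edgeR adjusted p-value 2.69e-06). In EtOH it had 255, 304, 311 and 463 CPM against 100.3, 115, 117 and 133 CPM (1.5 ± 0.18, adjusted p-value 5.30e-05). In EtOH + ABT-888 it had 214, 301, 314 and 384 CPM against 93.1, 96.7, 101 and 115 CPM (1.58 ± 0.18, adjusted p-value 4.97e-05). The pools did not overlap in any treatment. Cacnb1 was separated likewise in EtOH, with 196, 219, 229.6 and 309.9 CPM in TRAP against 80.8, 96.6, 104 and 104 CPM in total-RNA (1.29 ± 0.15, adjusted p-value 4.95e-05), and its fold change was 1.12 in Control and 1.23 in EtOH + ABT-888.

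Cacnb3 was higher by 0.47 ± 0.13 in Control and by 0.51 ± 0.17 in EtOH, where the call was lost without the TRAP library of mouse 9 or the total-RNA library of mouse 2 (adjusted p-values 0.0663 and 0.0686). In EtOH + ABT-888 it differed by 0.40 ± 0.21 and was called with the replicate block (adjusted p-value 0.0329). The remaining β subunit, Cacnb4, stood at 0.05, -0.01 and 0.05 on the log2 scale and was not called, except as higher with the replicate block and length correction together (0.28, 0.31 and 0.31). Exons of A430018G15Rik on the opposite strand cover 15.99% of its exon length, so that its level is uncertain, the strand setting of the counting being not given in the sources used here.

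Of the 8 α1 subunits tested, 4 were higher and 2 lower in Control_TRAP. Cacna1h and Cacna1i, which with Cacna1g form the T-type channels of low-voltage bursting, were higher by 1.60 ± 0.16 and 1.24 ± 0.18 in Control and were called in each treatment. Cacna1g went the other way, with 18.5, 22.8 and 24 CPM in Control_TRAP against 45.1, 52.3 and 64.3 CPM in Control_total-RNA (-1.33 ± 0.15, edgeR adjusted p-value 1.80e-05). In EtOH it had 4.28, 6.45, 14.8 and 23 CPM in TRAP against 32.3, 43.3, 43.7 and 46.5 CPM in total-RNA, and in EtOH + ABT-888 1.5, 10.5, 11.1 and 12.5 CPM against 40.1, 46, 48 and 64.4 CPM. TRAP was below total-RNA in every library, and the fold changes in the treated groups were -1.80 ± 0.42 (adjusted p-value 0.00359) and -2.44 ± 0.43 (adjusted p-value 0.000922). The 3 T-type genes thus divided between the pools in the same manner in each treatment.

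Cacna1c, an L-type channel that couples activity to transcription, was higher in TRAP by 0.86, 0.78 and 0.83, and Cacna1e was called higher in Control (0.40) and EtOH + ABT-888 (0.59). In EtOH, Cacna1e differed by 0.28 ± 0.15 (adjusted p-value 0.128) and was called with the replicate block and length correction together (0.86, adjusted p-value 9.66e-05) and in the single fit over all 22 libraries (0.30, adjusted p-value 0.0461). Cacna1d, the other brain L-type channel, was called lower in Control (-0.36) and EtOH (-0.36). Both calls were lost with the replicate block and length correction together (adjusted p-values 0.685 and 0.812), with the sign turned in EtOH (0.037), and the EtOH call was lost when any of 6 of the 8 libraries was left out (adjusted p-values up to 0.152). Exons of Chdh on the opposite strand cover 4.67% of its exon length. Cacna1a and Cacna1b were not called, with log2 fold changes of 0.15 to 0.22 and -0.10 to 0.16. With the replicate block and length correction together, Cacna1a was called higher in Control (0.45), EtOH (0.60) and EtOH + ABT-888 (0.44), and Cacna1b in EtOH (0.48) and EtOH + ABT-888 (0.35).

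Of the 8 sodium channel α subunits tested, 4 were lower and 2 higher in Control_TRAP. Scn7a, an atypical sodium channel that senses sodium in glia, had 0.796, 1.27 and 1.81 CPM in Control_TRAP and 8.15, 12.8 and 13.6 CPM in Control_total-RNA. It had 0.325, 0.68, 0.983 and 1.31 CPM in EtOH_TRAP against 4.57, 8.68, 8.94 and 10.4 CPM in EtOH_total-RNA. In EtOH + ABT-888 the pools held 0.374, 0.58, 1.39 and 2.25 CPM against 8.19, 8.53, 8.85 and 9.12 CPM. TRAP was lower throughout, with log2 fold changes of -3.24 ± 0.31, -3.34 ± 0.43 and -3.04 ± 0.48 (edgeR adjusted p-values 5.21e-06, 7.55e-05 and 0.000441). Astrocyte markers moved alike, their summed level being 68.1 to 119 CPM in Control_TRAP and 1024 to 1087 CPM in Control_total-RNA, and their part in the result was not tested.

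Scn10a was lower in TRAP in each treatment, with log2 fold changes of -2.10 ± 0.62, -2.24 ± 0.43 and -2.58 ± 0.57 (adjusted p-values 0.0120, 0.00112 and 0.00378). The Control value rests on few reads, 1, 3 and 4 in the TRAP libraries, and its call was lost without the total-RNA library of mouse 7 (adjusted p-value 0.0606). In EtOH + ABT-888 the highest TRAP library, at 2.16 CPM, lay above the lowest total-RNA library, at 2.13 CPM. Scn1a, the sodium channel Nav1.1 of fast-spiking interneurons, had 169.7, 179, 220.4 and 234 CPM in EtOH + ABT-888_TRAP against 286, 309, 331 and 368 CPM in the matching total-RNA libraries, without overlap (-0.69 ± 0.15, edgeR adjusted p-value 0.00318). It was also lower in Control (-0.37) and EtOH (-0.59), and with the replicate block and length correction together it was not called in either (adjusted p-values 0.301 and 0.0547).

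Scn2a and Scn8a, the main sodium channels of the axon initial segment, differed by less than 0.38 on the log2 scale between the pools. Scn2a was called only in Control (-0.20 ± 0.08, adjusted p-value 0.0403). That call was lost when any of 5 of the 6 libraries was left out (adjusted p-values up to 0.109), and its sign turned with the replicate block and length correction together (0.11). In EtOH (-0.37, adjusted p-value 0.0806) it was called with the replicate block (-0.38, adjusted p-value 0.00762). Scn8a was not called in any treatment, at -0.20, -0.12 and -0.20. With the replicate block it was called lower in Control (adjusted p-value 0.0377), and with the length correction added it was called higher instead (0.18, adjusted p-value 0.0408), as it was in EtOH (0.33, adjusted p-value 0.0189). Scn3a was higher in Control by 0.83 ± 0.09. With the replicate block, Scn3a was called in EtOH (0.30, adjusted p-value 0.0237) and in EtOH + ABT-888 (0.53, adjusted p-value 0.00985) too. Scn9a, the sodium channel Nav1.7 of nociceptors, was not called in any treatment.

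Hcn2, the most widespread HCN channel of the brain, was higher in TRAP by 0.66, 0.63 and 0.76, and was called in each treatment.

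Hcn4, a slow channel of pacemaker cells and thalamus, was low, with 1.5, 2.79 and 2.99 CPM in Control_TRAP against 3.78, 4.06 and 4.08 CPM in Control_total-RNA. In EtOH the pools held 1.28, 2.04, 2.31 and 2.62 CPM against 4.68, 5.2, 5.35 and 6.74 CPM (-1.44 ± 0.30, edgeR adjusted p-value 0.00187). The Control difference of -0.76 ± 0.29 (adjusted p-value 0.0400) was not called with the replicate block (0.0501) or when any of 4 of the 6 libraries was left out (up to 0.134), while the EtOH + ABT-888 difference of -1.26 ± 0.50 (adjusted p-value 0.0653) was (0.0146). Hcn3 was called lower in Control (-0.81) and EtOH (-1.14). Exons of Pklr on the opposite strand cover 17.12% of Hcn3, and its level is uncertain.

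**Figure D2:**
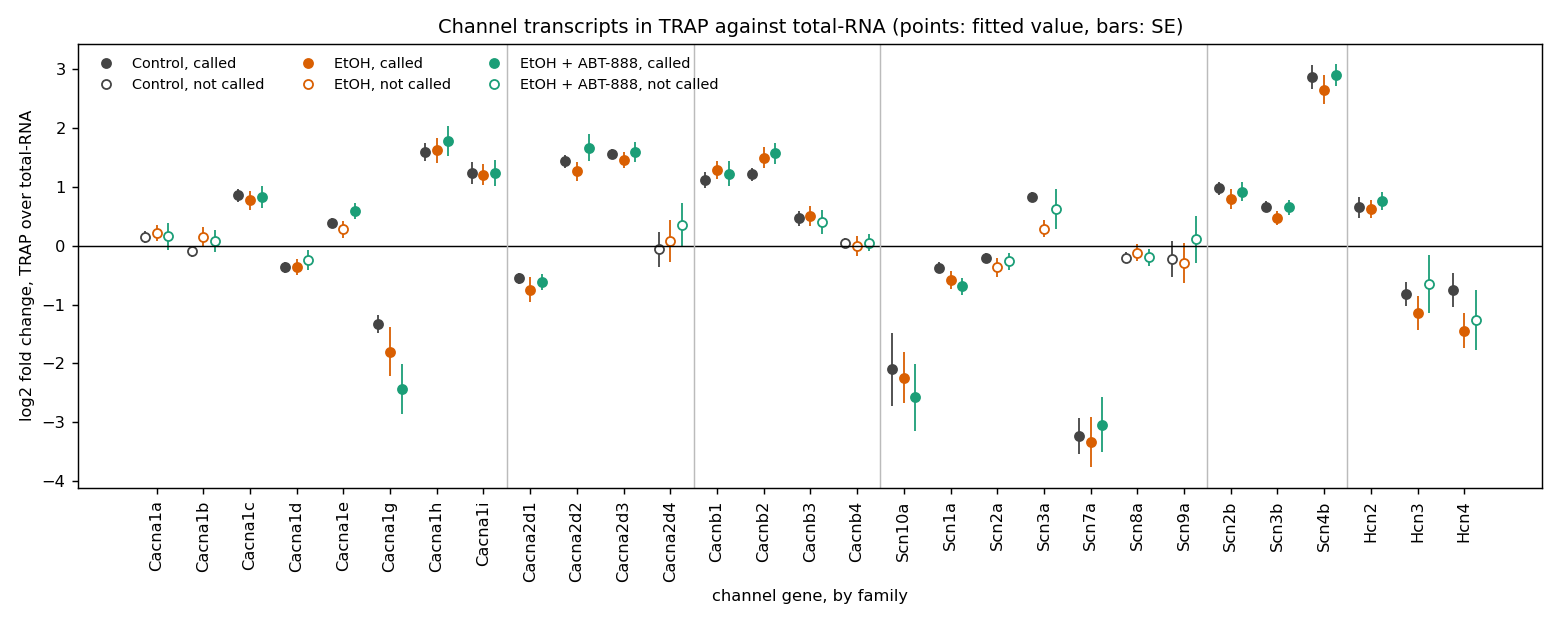
Log2 fold change of TRAP over total-RNA (y axis) of 29 of the 32 channel transcripts tested (x axis, by family) in Control, EtOH and EtOH + ABT-888. Points are fitted values, bars are SE and filled points were called. The sodium channel β subunits Scn2b, Scn3b and Scn4b sit above 0 in each treatment, Scn4b highest at 2.66 to 2.90, and Scn7a, Scn10a and Cacna1g sit between -3.34 and -1.33.

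The second comparison asked which channel transcripts changed with EtOH in each pool. The largest change was that of Scn10a, which rose in both pools, and Cacnb2 was the other transcript called higher in both. In TRAP, 3 of the 32 channel transcripts were called: Scn10a and Cacnb2 rose and Scn3a fell. In total-RNA, 7 were called, 3 higher and 4 lower: Scn10a and Cacnb2 were among those that rose, and Cacna1a, Cacnb3, Cacna2d3 and Scn2b fell. Over all transcripts, 5.24% were called in TRAP and 17.6% in total-RNA. The channel transcripts were called at 9.38% and 21.9%, close to these background shares. Their median log2 fold change was -0.09 in TRAP and -0.14 in total-RNA, against 0.02 and 0.00112 over all transcripts.

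Scn10a had 0.107, 0.166 and 0.228 CPM in Control_TRAP and 0.696, 1.18, 2.69 and 3.74 CPM in EtOH_TRAP. In total-RNA it had 0.414, 0.789 and 1.09 CPM in Control and 9.04, 9.55, 9.61 and 9.94 CPM in EtOH. Every EtOH library lay above every Control library of its pool, and the 4 EtOH_total-RNA libraries lay close together. The log2 fold change was 3.51 ± 0.79 in TRAP (edgeR adjusted p-value 0.0278) and 3.62 ± 0.27 in total-RNA (adjusted p-value 1.79e-05), a 12.3-fold rise in the latter.

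The reads behind these values were few in TRAP. Control_TRAP held 8 Scn10a reads in all and EtOH_TRAP 131, a ratio of rates of 10.5 with an exact 95% interval of 5.16 to 24.8, which covers counting error only. In total-RNA, 66 reads in Control stood against 1079 in EtOH (12.3, 9.63 to 16.1). The call in total-RNA held without any single library. The call in TRAP was lost without the Control_TRAP library of mouse 1, 4 or 7 (adjusted p-values 0.118, 0.118 and 0.108), with fold changes of 3.35, 3.47 and 3.79.

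Scn10a (ENSMUSG00000034533.10) lies on the minus strand of mm10 at chr9:119608456-119719322. A related sodium channel gene on this chromosome, Scn11a (chr9:119753759-119825456, same strand), was too low to be tested, at 0.0345 to 1.11 CPM in every library.

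Cacnb2 (ENSMUSG00000057914.15, plus strand, chr2:14603088-14987908) encodes a β subunit that slows inactivation of L-type channels. Its levels were 172, 187 and 222 CPM in Control_TRAP and 255, 304, 311 and 463 CPM in EtOH_TRAP, and all EtOH libraries were above all Control libraries (0.81 ± 0.20, edgeR adjusted p-value 0.0397). In total-RNA, 78.9, 82.8 and 85.2 CPM in Control stood against 100.3, 115, 117 and 133 CPM in EtOH, again without overlap (0.50 ± 0.11, adjusted p-value 0.0101). Leaving out the TRAP library of mouse 1, 4, 7, 5 or 8 ended the TRAP call (adjusted p-values 0.104, 0.167, 0.163, 0.0628 and 0.0523). In total-RNA the call was lost without mouse 4 (adjusted p-value 0.0610). Exons of Gm10849 on the opposite strand cover 4.67% of its exon length.

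The promoters of the 2 transcripts that rose in both pools are shown because these transcripts moved together. RefSeq's table for GRCm38.p6 holds 36 promoters for 26 of the 36 channel genes, each from 250 bases before to 50 bases after a start. Capitals mark TGACG on either strand, the core of a cAMP response element, which is the binding site of the activity-regulated factor CREB. The promoter of Scn10a (chr9:119718983-119719282, minus strand) holds 3 such matches. The upstream promoter of Cacnb2 (chr2:14604056-14604355, plus strand) holds 0, and its downstream promoter (chr2:14823842-14824141, plus strand) holds 1. All are written 5′ to 3′.
Scn10a: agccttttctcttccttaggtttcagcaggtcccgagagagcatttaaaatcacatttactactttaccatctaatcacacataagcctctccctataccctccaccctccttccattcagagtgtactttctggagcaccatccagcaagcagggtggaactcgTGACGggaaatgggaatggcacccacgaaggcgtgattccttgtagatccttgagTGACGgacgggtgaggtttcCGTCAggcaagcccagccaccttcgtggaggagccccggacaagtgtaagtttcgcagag
Cacnb2 upstream: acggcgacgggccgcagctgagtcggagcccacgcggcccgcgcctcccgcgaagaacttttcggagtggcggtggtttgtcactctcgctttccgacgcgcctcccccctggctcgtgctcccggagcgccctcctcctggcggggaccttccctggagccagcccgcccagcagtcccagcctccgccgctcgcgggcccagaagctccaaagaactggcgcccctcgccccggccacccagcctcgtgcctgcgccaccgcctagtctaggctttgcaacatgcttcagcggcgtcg
Cacnb2 downstream: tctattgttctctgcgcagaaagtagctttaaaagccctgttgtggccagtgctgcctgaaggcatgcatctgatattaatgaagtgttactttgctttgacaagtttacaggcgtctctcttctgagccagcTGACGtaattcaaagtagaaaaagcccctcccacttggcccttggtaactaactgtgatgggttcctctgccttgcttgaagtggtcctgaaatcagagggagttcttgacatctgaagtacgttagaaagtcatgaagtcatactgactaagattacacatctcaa

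Among all 32851 promoters of the table, 20.8% hold TGACG, against 16.7% of the 36 promoters of channel genes. CACGTG, the E-box core, is in 7.15% of all promoters, TGANTCA, the AP-1 site, in 7.81%, and AGAACA, the glucocorticoid receptor half-site, in 19% (each searched on both strands, where matches of different motifs can share end letters). CACGTG and TGANTCA are in 0 of the 36 channel promoters, and AGAACA is in 19.4% of them, including the downstream promoter of Cacnb2. A match describes these letters only.

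Scn3a, a sodium channel of the fetal brain that persists at lower levels in the adult, fell in TRAP. It had 169.8, 172 and 178 CPM in Control_TRAP and 87.5, 102, 112 and 121 CPM in EtOH_TRAP. The groups were far apart relative to their spread (-0.70 ± 0.14, edgeR adjusted p-value 0.0186), and the call was lost without the Control_TRAP library of mouse 1, 4 or 7 (adjusted p-values 0.103, 0.0883 and 0.0822). In total-RNA its groups overlapped, with 88.2, 99.5 and 101 CPM in Control and 66.9, 87, 89.5 and 96.9 CPM in EtOH (-0.18 ± 0.13, adjusted p-value 0.346).

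Of the 4 transcripts that fell in total-RNA, 3 encode calcium channel subunits. Cacna1a, the P/Q-type pore, had 152, 187 and 193 CPM in Control_total-RNA and 106, 128, 136 and 139 CPM in EtOH_total-RNA (-0.48 ± 0.12, edgeR adjusted p-value 0.0191). Cacnb3, a β subunit of N- and L-type channels, had 137, 164 and 183 CPM against 96, 109, 112 and 118 CPM (-0.57 ± 0.12, adjusted p-value 0.00702). Neither overlapped between the groups.

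Cacna2d3 had 149.9, 153 and 162 CPM in Control_total-RNA and 111, 116, 119 and 136 CPM in EtOH_total-RNA (-0.36 ± 0.10, edgeR adjusted p-value 0.0290). Scn2b, a β subunit that links to Nav1.2 and Nav1.6, had 381, 417 and 433 CPM against 264, 296, 299 and 344 CPM (-0.45 ± 0.11, adjusted p-value 0.0144). Their groups did not overlap either. Without the Control library of mouse 1, the calls of Cacna1a (adjusted p-value 0.0942), Cacna2d3 (0.101) and Scn2b (0.0709) were lost. Without that of mouse 4, all 4 were (0.102, 0.0851, 0.0802 and, for Cacnb3, 0.0538). In a single fit over all 22 libraries, these 4 and Cacnb2 were not called in total-RNA (adjusted p-values 0.176 to 0.239), and the Cacna2d3 call was lost when any of 6 of the 7 libraries was left out.

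In TRAP the same 4 transcripts had fold changes of the same sign and were not called. Cacna1a differed by -0.39 ± 0.14 (adjusted p-value 0.123), Cacnb3 by -0.50 ± 0.18 (0.128), Cacna2d3 by -0.45 ± 0.15 (0.0947) and Scn2b by -0.60 ± 0.19 (0.0876), the last being called by exactTest (0.0403) and DESeq2 (0.0373). In the single fit, Scn2b (0.0258) and Cacna2d3 (0.0493) were called lower in TRAP, and Scn3a was not called (0.0972). Of these, Cacna1a, Cacna2d3 and Scn2b had no overlap between EtOH_TRAP and Control_TRAP. Over the 32 channel transcripts, 9 did not overlap in TRAP (3 higher, 6 lower) and 8 in total-RNA (4 higher, 4 lower). Of all transcripts tested, 22.3% did not overlap in TRAP and 30.5% in total-RNA, so that these counts are near the background.

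The remaining channel transcripts were not called. Hcn2, Hcn3 and Hcn4 lay between -0.84 (Hcn3) and -0.09 (Hcn2) in TRAP and between -0.52 (Hcn3) and 0.47 (Hcn4) in total-RNA. Cacna1g was at -0.84 in TRAP (adjusted p-value 0.265), and without the EtOH_TRAP library of mouse 9 it was called lower, at -1.37 (0.0348), as were Cacna2d3 (-0.54, 0.0401), Cacnb3 (-0.67, 0.0257) and Scn2b (-0.77, 0.0208). Scn1a was at -0.42 ± 0.16 (adjusted p-value 0.135). Cacna1b, Cacna1c, Cacna1d and Cacna1e lay between -0.16 and 0.18 in both pools. The summed level of the 5 microglial markers also differed between these groups, at 219 to 234 CPM in Control_total-RNA and 76 to 110 CPM in EtOH_total-RNA, with 4 of 5 called lower, and its part in the changes of the channel transcripts was not tested. The summed level of the 6 excitatory markers was 4186 to 5088 CPM in Control_total-RNA and 4068 to 4903 CPM in EtOH_total-RNA, with 3 of 6 called lower and a median log2 fold change of -0.35. In TRAP that median was -0.94 with EtOH (1 of 6 called lower) and -1.02 with EtOH + ABT-888 (2 of 6 called lower). The microglial median in TRAP was -0.89 with EtOH (1 of 5 called lower), and the oligodendrocyte median stood at 0.11 in EtOH_TRAP and at 0.89 in EtOH + ABT-888_TRAP, with 0 of 6 called in each by edgeR's quasi-likelihood test (1 and 2 at an unadjusted p-value under 0.05). The part of these shifts in the channel values was not tested.

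**Figure D3:**
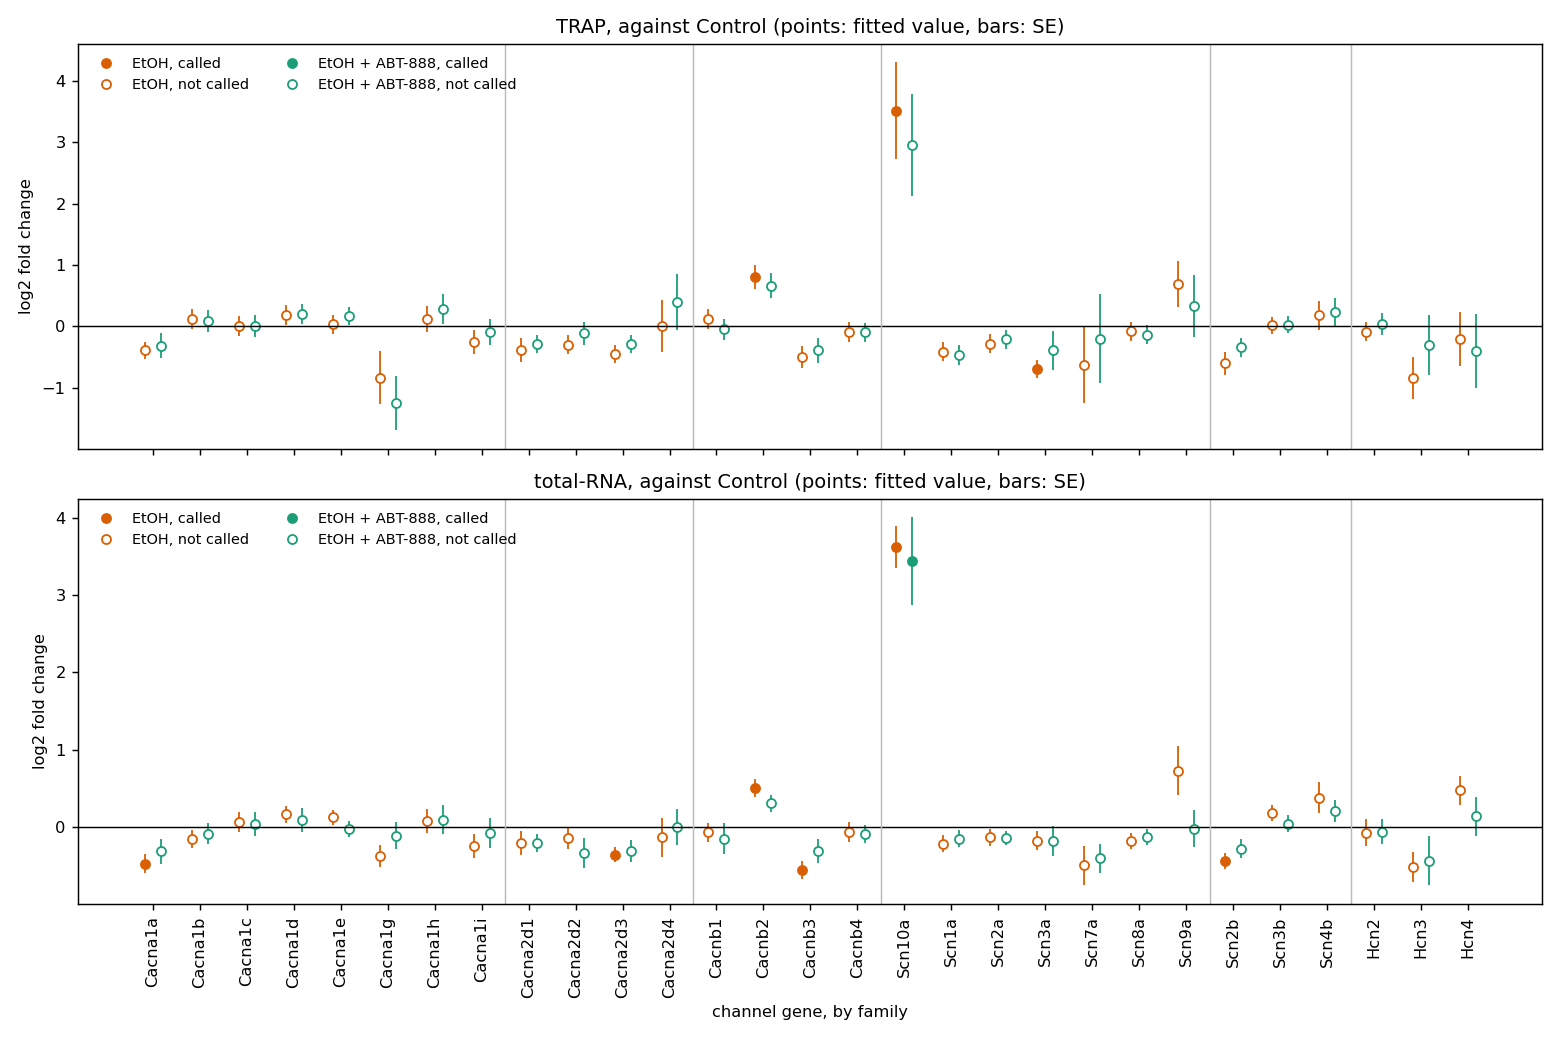
Log2 fold change against Control (y axis) of 29 of the 32 channel transcripts tested (x axis, by family), in TRAP (top) and total-RNA (bottom), for EtOH and EtOH + ABT-888. Points are fitted values, bars are SE and filled points were called. Scn10a stands far above the others in both pools, at 3.51 and 3.62 with EtOH, and most others lie within 1 log2 unit of 0.

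The third comparison set EtOH + ABT-888 against Control. In TRAP, 0 of the 32 channel transcripts were called with edgeR's quasi-likelihood test, where 0.476% of all transcripts were. Of the 32, 4 had an unadjusted p-value under 0.05, beside 1696 of all 14072, a like share. ExactTest and DESeq2 each called 1 channel transcript, beside 318 and 409 of all transcripts. In total-RNA, the quasi-likelihood test called 1, Scn10a, where 0.263% of all transcripts were called. Scn10a had 2.13, 9.81, 10.7 and 10.8 CPM in EtOH + ABT-888_total-RNA, above the 0.414, 0.789 and 1.09 CPM of Control_total-RNA (3.44 ± 0.57, adjusted p-value 0.0470). Its level in EtOH + ABT-888_TRAP was 0.41, 1.35, 1.56 and 2.16 CPM, also above every Control_TRAP library (2.95 ± 0.83, adjusted p-value 0.164). The ratio of rates from all reads was 10.8 in total-RNA (1001 against 66 reads, exact 95% interval 8.4 to 14) and 8.36 in TRAP (80 against 8 reads, 4.04 to 20).

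The lowest Scn10a value of the treated groups, in both pools, belonged to mouse 3 of EtOH + ABT-888, and that mouse lay near Control for several channel transcripts. In total-RNA its level was within the Control range for 5 of the 7 transcripts called with EtOH, and nearer to the Control mean than to the EtOH mean for all 7. Mice 6, 10 and 11 were within the Control range for 0, 1 and 1 of the 7. In TRAP, mouse 3 was within the Control range for 4 of them, and the other mice for 1, 0 and 0. Cacna1a, for example, had 190.2 CPM in total-RNA of mouse 3 and 115, 129 and 134 CPM in the other 3 mice. The share of all transcripts within the Control range was not counted. The channels were not alone: in total-RNA, the microglial markers Cx3cr1, P2ry12, Csf1r and Tmem119 were highest and nearest to Control in mouse 3. C1qa was not. Why this mouse differed was not tested.

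Without mouse 3, more was called against Control. Over all transcripts 6.18% in total-RNA and 2.65% in TRAP were called, and of the channel transcripts 3 of 32 in total-RNA (Scn10a higher, Cacna1a and Scn2b lower) and 2 of 32 in TRAP (Scn10a and Cacnb2 higher). Scn10a then differed by 3.76 in total-RNA (adjusted p-value 0.000657) and by 3.26 in TRAP (adjusted p-value 0.0419). Leaving out a Control library or mouse 6 or 11 instead ended the Scn10a call in total-RNA, where the adjusted p-value reached 0.284 and the fold change lay between 3.13 and 3.81. With the length correction the adjusted p-value was 0.0517.

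Cacnb2 had 93.1, 96.7, 101 and 115 CPM in EtOH + ABT-888_total-RNA, all above Control, and was not called (0.31 ± 0.11, adjusted p-value 0.213). Scn3a, called with EtOH in TRAP, had 51.5, 125, 167 and 181 CPM in EtOH + ABT-888_TRAP, the widest spread of the TRAP groups for this gene (-0.39 ± 0.31, adjusted p-value 0.654). The comparisons of EtOH and of EtOH + ABT-888 with Control share the Control libraries.

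The fourth comparison set EtOH + ABT-888 against EtOH, to ask whether the inhibitor changed channel transcripts in mice given ethanol. Of the 32 channel transcripts, 0 were called in TRAP and 0 in total-RNA, and of all transcripts 0% in either pool. At an unadjusted p-value under 0.05, the quasi-likelihood test gave 0 channel transcripts in TRAP and 2 in total-RNA, of 136 and 269 over all transcripts, and exactTest and DESeq2 called 0 channel transcripts as well. Scn9a was among the 2 (-0.75 ± 0.30, adjusted p-value 1). Scn10a differed by -0.19 ± 0.37 in total-RNA and by -0.56 ± 0.65 in TRAP, and the groups overlapped in both pools.

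**Figure D4:**
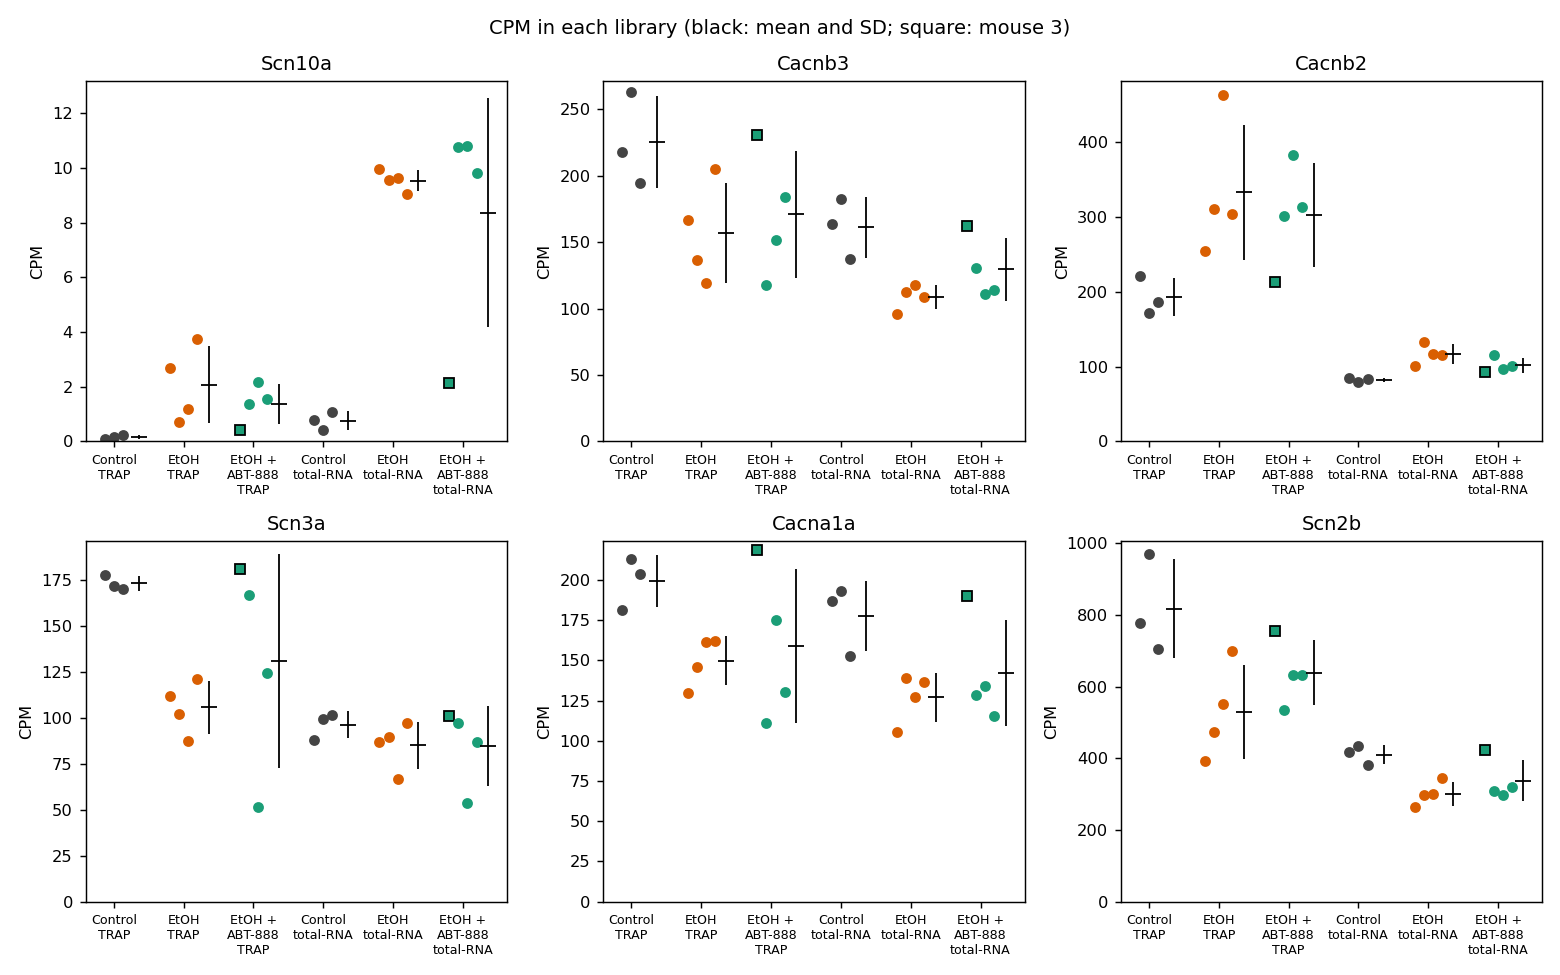
CPM (y axis, from 0) of 6 channel transcripts in each library of the 6 groups (x axis), with the group mean and SD in black and mouse 3 as a square. The EtOH and EtOH + ABT-888 libraries of Scn10a in total-RNA lie between 9.04 and 10.8 CPM, except that of mouse 3 at 2.13, and all lie above Control.

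**Figure D5:**
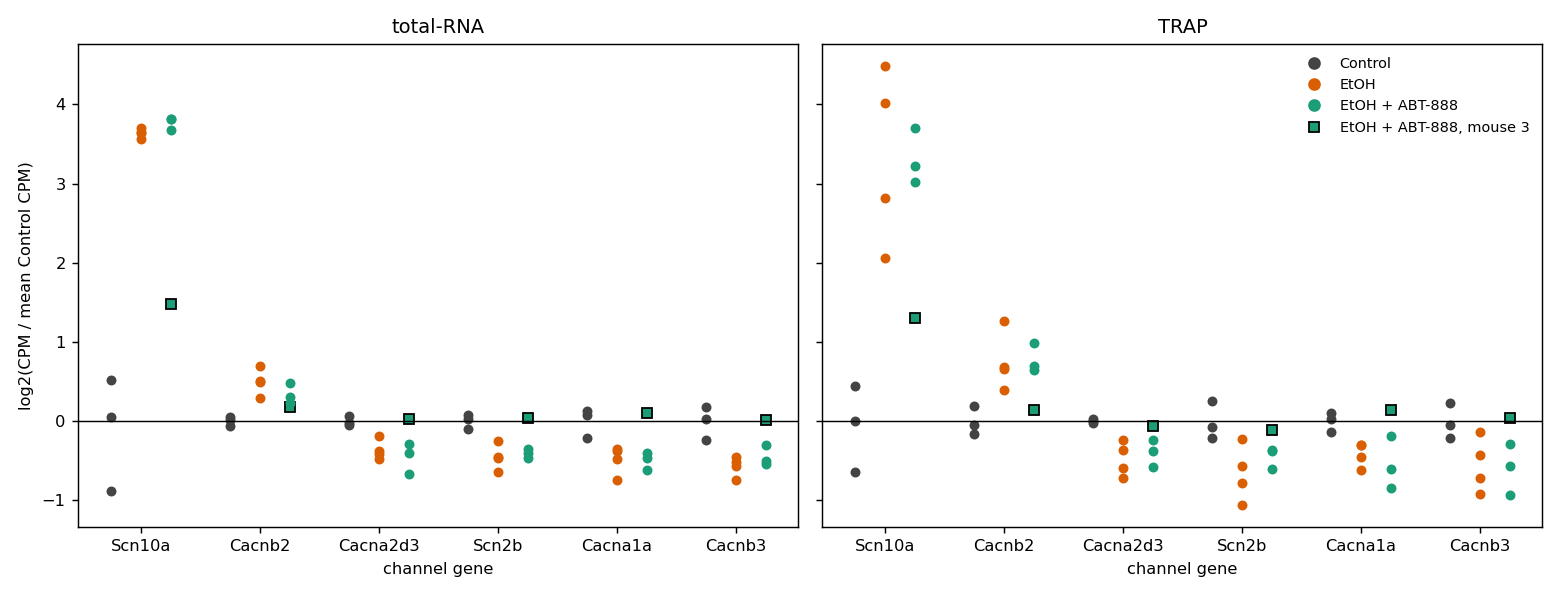
Level relative to the mean of Control (y axis, log2 of the ratio of CPM) of 6 of the 7 channel transcripts called with EtOH in total-RNA (x axis), in total-RNA (left) and TRAP (right), 1 point per mouse. The square is mouse 3 of EtOH + ABT-888, which is nearer to Control than to EtOH for each in total-RNA.

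An interaction term fitted over all 22 libraries asked whether the pools responded differently to treatment. Of the channel transcripts 0 were called for EtOH (0.0213% of all transcripts) and 0 for EtOH + ABT-888 (0%). By the unadjusted p-value, 1 channel transcript fell below 0.05 for EtOH, and 0 did for EtOH + ABT-888. Over all transcripts, 685 and 476 did. So a channel transcript called with EtOH in only one pool is not shown to differ between them. The rise of Scn10a differed between the pools by -0.13 ± 1.32 for EtOH, an error too wide to compare them closely.

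A list of 36 genes whose proteins bind or regulate these channels, of which 32 were tested, moved in both directions between the pools, with 11 higher and 13 lower in Control_TRAP, 9 and 8 in EtOH, and 8 and 7 in EtOH + ABT-888, beside the 59.9%, 50.7% and 41% of all transcripts called. Rem2, a small GTPase that inhibits calcium channels, was higher in TRAP by 2.47, 2.63 and 2.79 in Control, EtOH and EtOH + ABT-888. Ppp3ca, the catalytic calcineurin subunit, was higher by 1.39, 1.37 and 1.54, and Nedd4l, a ubiquitin ligase of sodium channels, by 1.04 in Control. Caly, a neuronal vesicle protein, was higher by 1.31 in EtOH and 1.32 in EtOH + ABT-888. In Control, Caly had 210, 213 and 221 CPM in TRAP against 106, 110 and 111 CPM in total-RNA. Nedd4l had 366 to 589 CPM in EtOH_TRAP against 213 to 377 CPM in EtOH_total-RNA. In EtOH + ABT-888 it had 302 to 574 CPM in TRAP against 207 to 319 CPM in total-RNA.

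Pex5l (TRIP8b), the auxiliary subunit that sets HCN channel trafficking, was lower in TRAP (-1.32, -1.31 and -1.38). Rims1, an active-zone protein that binds calcium channel β subunits, was lower too (-1.01, -1.36 and -1.22), as was Ank2, a membrane adaptor (-1.29, -1.08 and -1.13). All the fold changes given for these partner genes were called.

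With EtOH, 1 of the 32 partner transcripts was called in TRAP and 3 in total-RNA, no larger a share than the 5.24% and 17.6% of all transcripts. Rims1 fell in both pools, by 0.92 ± 0.22 in TRAP (edgeR adjusted p-value 0.0354) and by 0.58 ± 0.13 in total-RNA (adjusted p-value 0.0104). In total-RNA, Fgf13 fell by 0.43 ± 0.13 (adjusted p-value 0.0390) and Fgf14 rose by 0.48 ± 0.10 (adjusted p-value 0.00726). Both are intracellular fibroblast growth factor homologues that bind the tails of sodium channels. None was called with EtOH + ABT-888 in either pool by edgeR's quasi-likelihood test.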

How the data were processed

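Paired-end libraries from a CORALL kit, made after depletion of rRNA, were aligned by the authors to mm10 with STAR, and the deposited values are raw read counts per gene from featureCounts over an ENSEMBL annotation with non-coding RNAs. Versions, strand and multimapping settings are not given in the sources used here. Each of the 22 columns was matched to a sample by its label, and 0 columns were left without one.

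Gene IDs were matched to GENCODE release M21 (38872 of 39056) for symbols, positions and exon lengths. Groups were compared with edgeR 4.0.16 (glmQLFit and glmQLFTest, TMM, R 4.3.3) using only the libraries of the groups compared, and the interaction used all 22. Transcripts needed at least 500 counts in all and detection in at least 3 libraries, and p-values were adjusted by Benjamini-Hochberg over all transcripts tested. SE is the log2 fold change divided by the square root of F. The scripts were tested on simulated data. Up to 4 called members per direction and comparison, and up to 3 partners, taken by smallest p-value, are given in full, and the results of some genes are not reported here.

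Alternatives were exactTest (a likelihood ratio test for the interaction), DESeq2 1.42.0, RLE factors, no filter, an adjusted p-value under 0.01, a single fit over all libraries, a length correction, the mouse as replicate block and each library left out. Removing both libraries of mouse 3 was chosen after seeing the data. The members and lists were chosen with earlier results of these data known. Same-numbered libraries were taken to come from the same mouse, a number that the sample titles do not give. The correlation of their deviations from the group means was 0.102 to 0.622 over the 11 mice. That of differently numbered libraries was not computed, so the pairing itself was not tested. Each library is the PFC of 1 mouse. Count-based intervals cover counting error only, since reads were pooled over the mice of a group and variation between mice is left out. Deduplication is not given in the sources used here.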

Additional observations from a re-analysis of the deposited data

Results flagged for a closer look

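Of 128 combinations of a channel transcript and a group of 4 libraries, 3 held a library set apart from the others, its gap to the nearest library divided by the range of the group being above Dixon's 95% critical value. Chance alone sets about 1 in 20 groups apart, or 6.4 of the 128, more than the 3 found. In 2 of the 3, the library was that of mouse 3 of EtOH + ABT-888.

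Scn10a in EtOH + ABT-888_total-RNA was lowest in mouse 3, at 2.13 CPM against 9.81 to 10.8 CPM in the other mice (gap over range 0.888). Scn8a, the sodium channel Nav1.6, was highest in mouse 3 in the same group, at 688 CPM against 586 to 589 CPM (0.978). Scn9a in EtOH_TRAP was highest in mouse 5, at 3.53 CPM against 2.79 to 2.91 CPM (0.834).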

How the results depend on the processing

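Of 84 recounts of called channel transcripts over 11 comparisons, leave-outs aside, 74 stayed within 1.5 times the reported count. Recounts of 0 in comparisons with 0 called are among the 74. With EtOH in TRAP (3 called), 0 passed an adjusted p-value of 0.01 and DESeq2 called 5, adding Cacna2d3 and Scn2b. Over all transcripts, 737 became 1372 with exactTest, 1487 with DESeq2, 1472 without the filter, 1191 in the single fit and 87 at 0.01. With EtOH in total-RNA (7 called), 2 passed 0.01 and 2 passed in the single fit over all 22 libraries, where Scn10a was called and Cacna1a, Cacnb2, Cacnb3, Cacna2d3 and Scn2b had adjusted p-values of 0.176 to 0.239 (2482 transcripts in all became 802 and 151). In TRAP the single fit lost Scn3a (adjusted p-value 0.0972) and gained Scn2b (0.0258) and Cacna2d3 (0.0493). Between the pools in Control it called 20 channel transcripts (15 higher, 5 lower) and 6023 in all, instead of 26 and 8428. With EtOH + ABT-888 in TRAP (0 called), exactTest, DESeq2 and the single fit each called 1, Scn10a, and 2 were called without the filter, Cacna1g and Cacnb2, while 67 transcripts in all became 318, 409, 403 and 454, and 0 at 0.01. In total-RNA (1 called), 0 passed 0.01 and 0 passed with the length correction (Scn10a, adjusted p-value 0.0517), while 37 in all became 544 with exactTest, 621 with DESeq2, 544 without the filter, 22 with the length correction and 0 at 0.01. The causes of these changes were not tested. Leaving out each library in turn gave 0 to 7 called with EtOH in TRAP (7 without mouse 9) and 1 to 9 in total-RNA (1 without mouse 4, 9 without mouse 9), while all transcripts called ran from 84 to 1550 (1550 without mouse 9) and from 878 to 3616 (878 without mouse 4, 3616 without mouse 9), and 0 to 2 and 0 to 3 with EtOH + ABT-888, the upper values without mouse 3.

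The replicate block gave 26, 24 and 23 called between the pools in Control, EtOH and EtOH + ABT-888. It changed no call other than those of Hcn4, Scn8a, Scn2a, Scn3a and Cacnb3 given with the results. The length correction was then added to the block. Among transcripts called in the reported comparison or with both, the sign of the fold change turned for Scn2a (0.11) and Scn8a (0.18) in Control. In EtOH it turned for Cacna1d (0.037), Cacnb4 (0.31) and Scn8a (0.33). Removing both libraries of mouse 3 left 19 of 20 called between the pools in EtOH + ABT-888. For single transcripts, leave-outs aside, 2269 values kept their side of the threshold, 39 passed it newly, 23 lost it and 5 turned sign. A turned sign was counted only for a transcript called in the reported comparison or under the alternative. Sign changes of transcripts called in neither were not counted as changes, so the 2269 need not all have kept direction. Low transcripts rest on few reads, such as Scn10a with 8 in all in Control_TRAP.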
